A study of Mus musculus with 6 samples.

Results

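Nt5e, which encodes the AMP-hydrolysing surface enzyme CD73, and the genes that act around it in the adenosine pathway were examined in hearts of mouse embryos at embryonic day 9.5. The rule named 9 genes by symbol: the enzymes that make adenosine outside the cell, Nt5e and Entpd1; those that remove it, Ada and Adk; its receptors Adora1, Adora2a and Adora2b; and the transporters Slc29a1 and Slc29a2. Of these, 8 were among the 15330 genes measured, and Adora2b was not analysed here. Nt5e was chosen by its low normalized counts in the deletion hearts of these same libraries. The other genes were chosen by their place in the pathway, with earlier results of these data known. The differences of the 8 genes are therefore given as a description, with no p-value, and so are their calls past a threshold.

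Deletion hearts, labelled H2-URI d/d, lacked on both alleles a stretch of 373 kb that lies upstream of Hand2 and was removed with CRISPR-Cas9, and the other hearts were wild-type. Hand2, a helix-loop-helix factor needed to build the heart, was thought to be regulated from this stretch, and the study asked how its loss acts on Hand2 and on genes downstream. Each group had 3 libraries of bulk RNA from micro-dissected hearts, with replicates 1 and 2 labelled female and replicate 3 labelled male. All 6 libraries carried batch number 1. How many hearts went into a library is not stated, so the errors measure the spread between libraries, part of which may be technical. By its labelled sex, replicate 3 of each group came from other hearts than replicates 1 and 2. The deletion is constitutive in these embryos, and transcripts of every cell type of the heart were read together. Less RNA per cell and fewer cells of a type therefore cannot be told apart.

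The columns of the deposited table were given to the samples whose titles carry the same code. For 4 of the 6 libraries, replicates 1 and 2 of both groups, the deposited file is recorded under a sample of the other group. Code and record name the same sample for replicate 3 alone, where Nt5e stood at 22.7 normalized counts in the deletion library and 190 in the wild-type library. For the same pair Entpd1 had 303 in the deletion library against 921 in the wild-type library, and Adora2a 242 against 134. Under the recorded assignment no gene of the whole table passed the test in limma, 414 had an unadjusted p under 0.05, and the Nt5e difference was 0.98 on the log2 scale. All differences below rest on the codes. Hand2 itself had 1025, 1158 and 1163 normalized counts in deletion libraries 1 to 3, against 3911, 3789 and 4407 in wild-type libraries 1 to 3. The recovered read totals were between 26016264 and 30117718 in the deletion libraries and between 25583210 and 32043595 in the wild-type libraries.

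Adenosine is a signalling nucleoside that cells make from released ATP. On the cell surface CD39, the product of Entpd1, takes ATP and ADP down to AMP, and CD73, the product of Nt5e, removes the last phosphate to give adenosine. Adenosine then binds G protein-coupled receptors that lower or raise cyclic AMP, or it enters cells through equilibrative nucleoside transporters and is deaminated to inosine by Ada or phosphorylated back to AMP by Adk. In the heart the pathway is known for slowing the beat through the A1 receptor and for widening coronary vessels through A2 receptors.

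Nt5e had 20.1, 18.6 and 22.7 normalized counts in deletion libraries 1 to 3, against 160, 159 and 190 in wild-type libraries 1 to 3. A normalized count is a read count divided by a size factor for its library. The 3 deletion libraries lay close together and far below the lowest wild-type library. The mean was 20.4 ± 2.08 in deletion hearts and 170 ± 17.7 in wild-type hearts (SD, n = 3 each), so that the wild-type level was 8.31 times that of deletion hearts. The log2 difference, deletion minus wild-type on the log2(normalized count + 1) scale as for all differences here, was −2.99 (SE 0.19). These values correspond to 19, 20 and 21 reads in the deletion libraries and to 141, 179 and 208 reads in the wild-type libraries, so the deletion level rests on few reads, though it was above 0 in every library. The difference was −2.98 between the female libraries and −3.01 between the single male libraries. Nt5e lies on chromosome 9, and Hand2 is on another chromosome.

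Entpd1, which supplies the AMP that CD73 uses, had 382, 357 and 303 normalized counts in deletion libraries 1 to 3, against 774, 838 and 921 in wild-type libraries 1 to 3. The groups did not overlap, and the highest deletion library was below the lowest wild-type library. The mean was 347 ± 40.1 in deletion hearts and 844 ± 73.5 in wild-type hearts (SD, n = 3 each), or 41.1% of the wild-type level, with a log2 difference of −1.28 (SE 0.11). It was −1.12 between the female and −1.60 between the male libraries. For every 100 reads of Entpd1 the deletion libraries held 5.25, 5.21 and 7.47 reads of Nt5e, and the wild-type libraries 20.7, 19.0 and 20.7. Within a library, then, the pair did not keep the same ratio in both groups, a comparison that no scaling between libraries touches.

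The promoters of these 2 genes are shown because both differed downwards and because Hand2 belongs to a class of factors that binds the E-box, CANNTG. They are RefSeq windows on GRCm38.p6, another build than the GRCm39 of the deposited table, and run from 250 bases before to 50 bases after the annotated start. Capitals mark each E-box. RefSeq windows were found for 8 of the 9 genes, all but Adora2a. The Nt5e window is chr9:88327359-88327658 on the plus strand, and the 2 Entpd1 windows are chr19:40612116-40612415 and chr19:40659520-40659819, also on the plus strand.
Nt5e: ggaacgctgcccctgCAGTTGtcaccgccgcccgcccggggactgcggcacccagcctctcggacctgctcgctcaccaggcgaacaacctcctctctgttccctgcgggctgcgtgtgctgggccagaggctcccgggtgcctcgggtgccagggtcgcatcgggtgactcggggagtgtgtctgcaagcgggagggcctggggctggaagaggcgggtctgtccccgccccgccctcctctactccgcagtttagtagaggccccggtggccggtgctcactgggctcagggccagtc
Entpd1 start 1: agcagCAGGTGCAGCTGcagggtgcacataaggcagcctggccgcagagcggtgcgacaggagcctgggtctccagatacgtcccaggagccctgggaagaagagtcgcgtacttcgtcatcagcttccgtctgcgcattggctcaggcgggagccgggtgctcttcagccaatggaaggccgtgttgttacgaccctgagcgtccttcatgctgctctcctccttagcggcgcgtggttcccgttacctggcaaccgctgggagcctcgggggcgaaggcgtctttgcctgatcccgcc
Entpd1 start 2: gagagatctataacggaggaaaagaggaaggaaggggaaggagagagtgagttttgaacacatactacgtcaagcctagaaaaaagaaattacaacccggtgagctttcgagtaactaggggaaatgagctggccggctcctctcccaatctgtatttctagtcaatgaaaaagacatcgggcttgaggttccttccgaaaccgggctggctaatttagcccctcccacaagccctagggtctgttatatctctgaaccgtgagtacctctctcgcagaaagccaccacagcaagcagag
The Nt5e window had a GC content of 71.0% and 1 E-box, CAGTTG. The first Entpd1 window had 64.0% GC and 2 E-boxes, CAGGTG followed directly by CAGCTG, and the second had 48.7% GC and 0. CANNTG reads the same way on both strands as a pattern, and 72.3% of the 32851 promoter windows of the same length held at least 1, so its presence sets neither gene apart. The core of the hypoxia response element, ACGTG on either strand, was in none of the 3 windows and in 19.6% of all windows. Such matches describe letters and not binding.

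**Figure D1:**
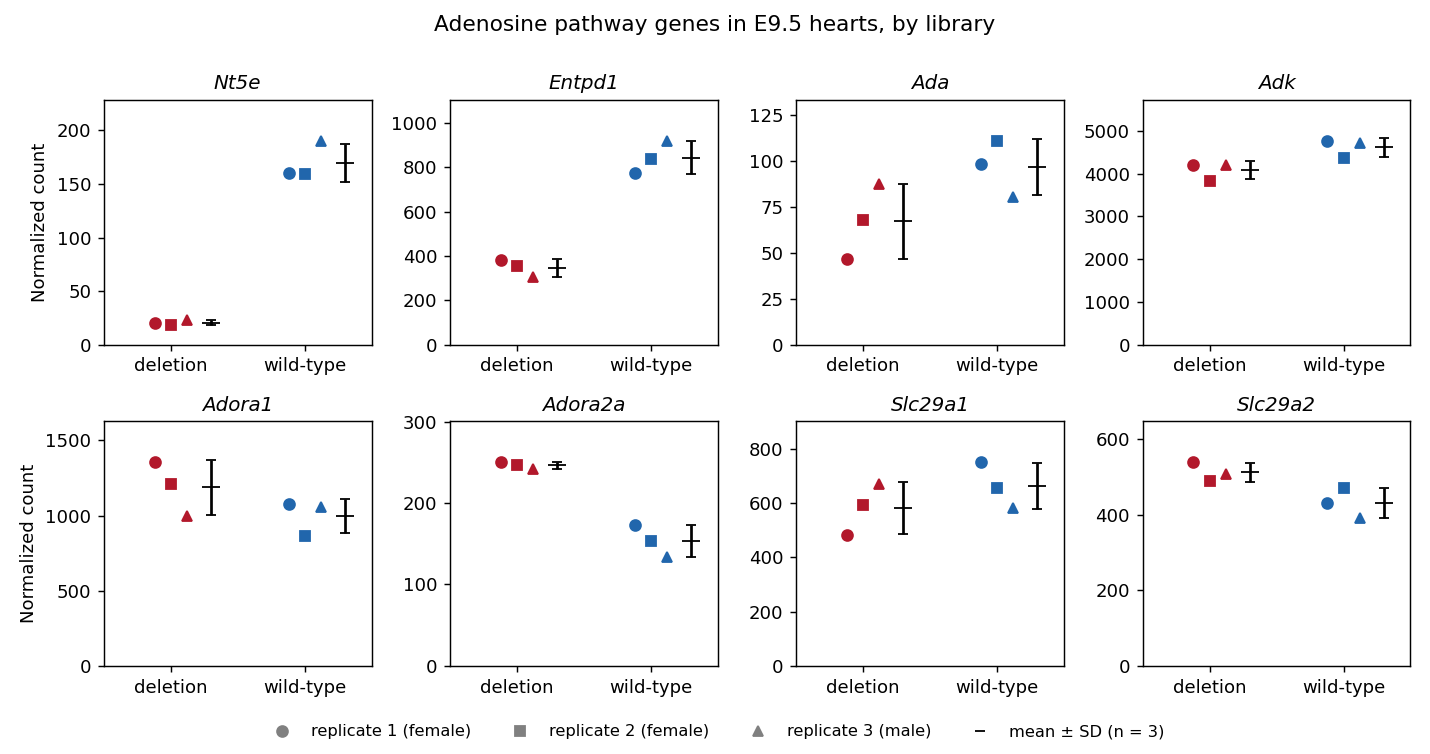
Normalized counts of the 8 measured adenosine pathway genes, 1 panel a gene, each with its own vertical axis from 0. Points are the 3 deletion libraries on the left and the 3 wild-type libraries on the right, with mean ± SD beside them. Nt5e and Entpd1 lie lower in every deletion library and Adora2a higher, while Ada, Adora1 and Slc29a1 overlap between the groups.

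Of the enzymes that remove adenosine, Adk, the kinase that returns it to AMP, was the most abundant of the 8 genes. It had 4206, 3837 and 4212 normalized counts in deletion libraries 1 to 3, against 4767, 4362 and 4704 in wild-type libraries 1 to 3. The groups did not overlap, but they lay close: the mean was 4085 ± 215 in deletion hearts and 4611 ± 218 in wild-type hearts (SD, n = 3 each), with a log2 difference of −0.17 (SE 0.07) that did not pass the threshold.

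Ada, the deaminase, was low in both groups and varied most of the pathway genes between deletion libraries. It had 46.4, 67.8 and 87.5 normalized counts in deletion libraries 1 to 3, against 98.7, 111 and 80.5 in wild-type libraries 1 to 3. The male deletion library was above the male wild-type library, and the groups overlapped. The log2 difference was −0.55 (SE 0.24), which did not pass. The summed level of primitive erythroid genes, mostly embryonic globins, moved in the same order within each group: it was 37.8%, 95.8% and 201% of the wild-type mean in deletion libraries 1 to 3, and 91.4%, 155% and 53.3% in wild-type libraries 1 to 3. Whether red cell content has a part in the Ada values was not tested.

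Adora2a, which encodes a receptor that raises cyclic AMP, was the single member above its wild-type level by the test. It had 250.2, 246 and 242 normalized counts in deletion libraries 1 to 3, against 173, 154 and 134 in wild-type libraries 1 to 3. The deletion libraries were nearly level, and all 3 were above the highest wild-type library. The mean was 246 ± 4.12 in deletion hearts and 153 ± 19.5 in wild-type hearts (SD, n = 3 each), a ratio of 1.60 and a log2 difference of 0.69 (SE 0.13). It kept this direction with any library left out, between 0.59 and 0.77, but passed the threshold in only 2 of those 6 fits. It was lost without any 1 of the 3 deletion libraries and without wild-type replicate 3, with differences of 0.67, 0.69 and 0.70 without deletion replicates 1, 2 and 3 and 0.59 without wild-type replicate 3. With the 4 female libraries alone it was 0.60 and did not pass.

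Adora1, the A1 receptor that lowers cyclic AMP and slows the heart, had 1355, 1209 and 996 normalized counts in deletion libraries 1 to 3, against 1074, 866 and 1054 in wild-type libraries 1 to 3. The male deletion library fell inside the wild-type range, so the groups overlapped. The mean was 1187 ± 181 in deletion hearts and 998 ± 114 in wild-type hearts (SD, n = 3 each), and the log2 difference of 0.24 (SE 0.12) did not pass. Its exons overlap those of Mybph on the opposite strand in GENCODE M21, and the strand setting of the counting is not given in the sources used here, so reads of this pair could not be told apart if strand was ignored.

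The transporters carry adenosine across the plasma membrane in either direction. Slc29a1, which encodes ENT1, had 483, 592 and 672 normalized counts in deletion libraries 1 to 3, against 751, 657 and 581 in wild-type libraries 1 to 3. The groups overlapped, with a log2 difference of −0.19 (SE 0.13). Its order within the deletion group was that of the erythroid sum given above, though not within the wild-type group, and this was not tested.

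Slc29a2, which encodes ENT2, had 538, 487 and 508 normalized counts in deletion libraries 1 to 3, against 430, 470 and 392 in wild-type libraries 1 to 3. The groups did not overlap, and the log2 difference of 0.25 (SE 0.10) did not pass the threshold.

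Of the 8 measured genes, 2 were past the threshold of an adjusted p of 0.05 in limma and lower in deletion hearts, Nt5e and Entpd1, where 1.5% of all genes were. One, Adora2a, was past it and higher, where 1.55% of all genes were. The other 5 did not pass, where 3.05% of all genes passed in either direction. The groups did not overlap for 5 of the 8, where they did not for 27.4% of all genes. The median log2 difference was −0.18 over the 8 and −0.0073 over all genes. Since Nt5e was taken from this contrast, nothing is read from these counts.

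**Figure D2:**
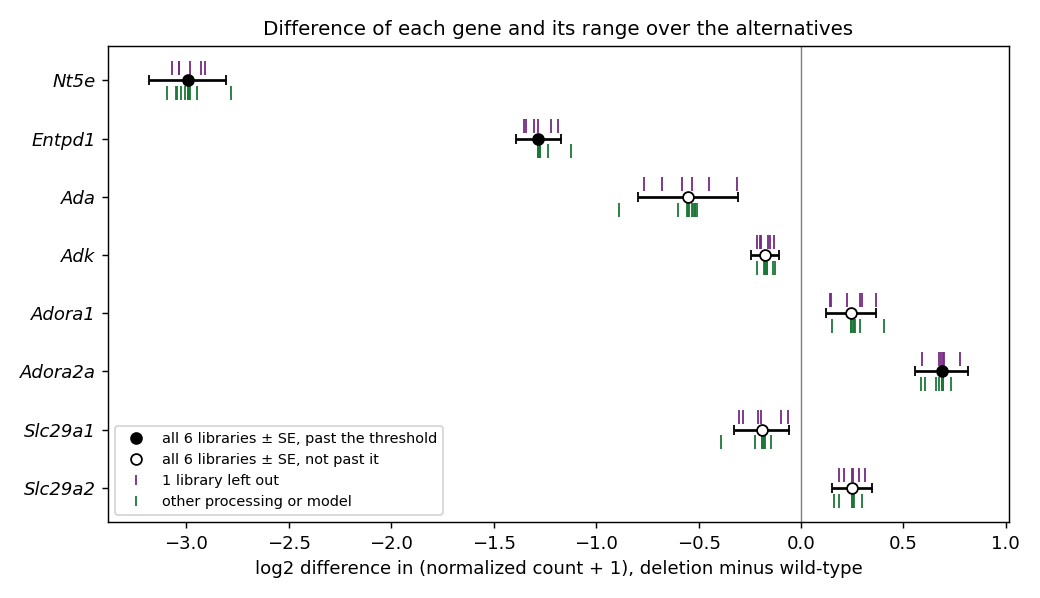
Log2 difference of each gene, deletion minus wild-type, with its SE from all 6 libraries. Filled circles passed the threshold and open ones did not. Purple ticks show the difference with 1 library left out and green ticks other processing or models, without the recorded file assignment. Nt5e stays between −3.09 and −2.78 throughout, and Entpd1 between −1.35 and −1.12.

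Per kilobase of the longest transcript in GENCODE M21, a scale on which genes can be compared, Nt5e was the lowest of the 8 in both groups, at 5.12 ± 0.52 normalized counts per kb in deletion hearts and 42.5 ± 4.44 in wild-type hearts (SD, n = 3 each). Adk was the highest, at 963 ± 50.6 per kb in deletion hearts and 1087 ± 51.4 in wild-type hearts. In deletion hearts the order below Adk was Slc29a1, Adora1, Slc29a2, Adora2a, Entpd1, Ada and Nt5e. Of these neighbours, Slc29a1 overlapped Adora1 and Adora1 overlapped Slc29a2, and the others did not overlap. In wild-type hearts it was Slc29a1, Adora1, Entpd1, Slc29a2, Adora2a, Ada and Nt5e. There Adora1 overlapped Entpd1, and Adora2a overlapped Ada, while Ada at 47.7 to 65.9 per kb lay just above Nt5e at 39.9 to 47.6. Entpd1 was level with Adora1 in wild-type hearts, at 200 ± 17.4 against 201 ± 23.0 per kb. In deletion hearts it was at 82.3 ± 9.50 per kb, and Adora2a at 94.8 ± 1.59 stood above it.

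Ratios within a library do not depend on how the libraries were scaled. For every 1000 reads of Adk there were 4.77, 4.84 and 5.38 reads of Nt5e in deletion libraries 1 to 3, against 33.6, 36.5 and 40.5 in wild-type libraries 1 to 3. For Entpd1 the same ratio was 90.8, 92.9 and 72.1 in the deletion libraries and 162, 192 and 196 in the wild-type libraries. For Adora2a it was 59.5, 64.1 and 57.4 in the deletion libraries and 36.2, 35.3 and 28.4 in the wild-type libraries. The groups did not overlap for these 3 genes on this scale, nor for Slc29a2 and Adora1. The share of all genes without overlap on this scale was not worked out, so nothing is read from this. Adora1, whose groups overlapped in normalized counts, had 322, 315 and 236 reads per 1000 of Adk in the deletion libraries and 225, 199 and 224 in the wild-type libraries. Adk itself was 88.6% of its wild-type level in deletion hearts, which raises every ratio to it there. Ada and Slc29a1 overlapped on this scale too.

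Around these genes, 105 further symbols of purine and adenosine biology, older names included, were looked up in 6 lists, and 67 had a row. Of the 67, 0 were lower and 1 was higher in deletion hearts past the threshold in limma, while 66 did not pass. Of all genes 3.05% passed in either direction, so nothing is read from this count. At an unadjusted p under 0.05 there were 4 lower and 7 higher, together 16.4% of the 67, where 21.4% of all genes were. None was lower in edgeR or DESeq2 on the recovered reads either. The median log2 difference was 0.03, with a range from −0.26 to 1.10.

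The gene that rose was Enpp1, an ectoenzyme that splits extracellular ATP to AMP and pyrophosphate and so offers another route to the substrate of CD73. It had 349, 317 and 473 normalized counts in deletion libraries 1 to 3, against 171, 185 and 166 in wild-type libraries 1 to 3. All deletion libraries were above all wild-type libraries. The mean was 379.7 ± 82.5 in deletion hearts and 174 ± 9.96 in wild-type hearts (SD, n = 3 each; log2 difference 1.10, SE 0.15, adjusted p = 0.00653, limma). With the 4 female libraries alone it was 0.90 with an adjusted p of 0.0737 (limma). Its list, enzymes that hydrolyse nucleotides outside the cell, had 8 measured members of 16, with 7 not past the threshold and a median of 0.14.

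In the other 5 lists no gene passed in limma, where 3.05% of all genes did. The list of intracellular nucleotidases, S-adenosylhomocysteine hydrolase and genes related to them by sequence had 11 measured members of 13 with a median of −0.02. Its 2 most abundant genes are such relatives, which are not established makers of adenosine. Nt5dc2 had 6213 ± 340 normalized counts in deletion hearts and 6030 ± 318 in wild-type hearts (SD, n = 3 each), followed by Ahcyl1 with 4003 ± 173 in deletion hearts and 3893 ± 238 in wild-type hearts. The adenylate and purine salvage list had 16 of 25 measured and a median of −0.12. Its adenylate kinase gene Ak1 had 3627 ± 450.3 normalized counts in deletion hearts and 4087 ± 215 in wild-type hearts (SD, n = 3 each), a log2 difference of −0.18 that did not pass.

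Among the other nucleoside transporters 2 of 5 were measured. Slc29a3, a transporter of endosomes and lysosomes, had 279 ± 19.2 normalized counts in deletion hearts and 217 ± 23.0 in wild-type hearts, a log2 difference of 0.36 that did not pass (adjusted p = 0.128, limma). Slc29a4 had 61.0 ± 7.05 in deletion hearts and 61.0 ± 29.9 in wild-type hearts. Channels of ATP release and P2 receptors had 8 of 21 measured with a median of 0.08. Panx1, a membrane channel that releases ATP, had 535 ± 40.4 in deletion hearts and 604 ± 64.2 in wild-type hearts, and Ank, which exports pyrophosphate and ATP, had 561 ± 46.1 in deletion hearts and 585 ± 23.2 in wild-type hearts.

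The signalling list downstream of the receptors had 22 of 25 measured with a median of 0.05 and a range from −0.26 to 0.68. Gnas, the stimulatory G protein subunit used by A2 receptors, had 21714 ± 622 normalized counts in deletion hearts and 23693 ± 1896 in wild-type hearts (SD, n = 3 each; log2 difference −0.12). Prkar1a, a regulatory subunit of protein kinase A, had a difference of −0.12 as well.

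**Figure D3:**
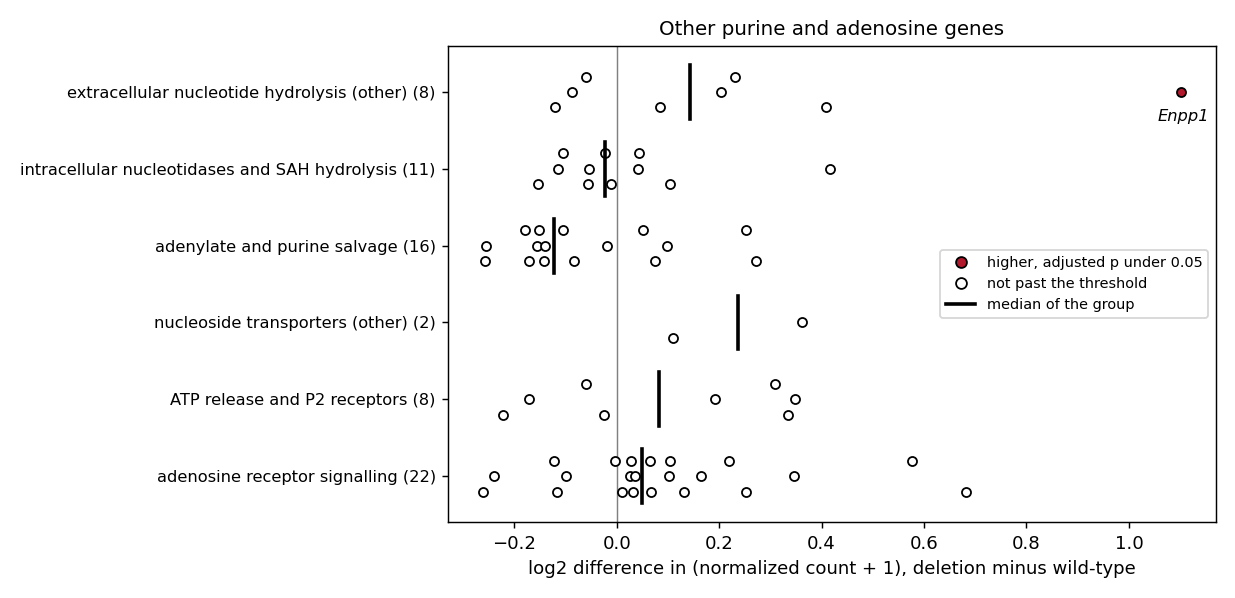
Log2 differences, deletion minus wild-type, of the 67 other purine and adenosine genes in 6 lists, with the number measured in brackets. The filled circle passed the threshold, open circles did not, and bars mark each list's median. Enpp1 at 1.10 is the filled one, and the list medians lie between −0.12 and 0.24.

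Cell type markers are given because CD73 is made by only some cells. Of all genes, 3.05% passed in either direction and the groups did not overlap for 27.4%. A lack of overlap in these lists is therefore given as a value only. Cardiomyocyte markers, 10 of 10 measured, summed to 104% of the wild-type mean in deletion hearts, and endothelial and endocardial markers, 10 of 10, to 99.1%. The heart label thus had its defining genes: the cardiac troponin gene Tnnt2 and Pecam1 of endothelium were measured in every library. No cardiomyocyte marker passed. Myh6, Myh7, Ttn and Ryr2 stood at 122%, 113%, 129% and 125% of the wild-type mean without overlap. The other cardiomyocyte markers overlapped, among them Tnni1 at 76.5%. Within the endothelial list Tek fell to 2670 ± 72.8 normalized counts in deletion hearts, against 3401 ± 122 in wild-type hearts (log2 difference −0.35, adjusted p = 0.0178, limma), and Kdr rose to 5192 ± 299, against 4133 ± 146 (0.33, adjusted p = 0.0317, limma). Both calls were lost when any 1 deletion library or wild-type replicate 3 was left out and with the 4 female libraries alone, and that of Kdr also with sex as a covariate or with the length and GC trend removed. The other 8 endothelial genes did not pass. Of these, Emcn and Plvap stood lower without overlap, at 76.5% and 80.6% of the wild-type mean, and Npr3 higher without overlap, at 108%. The rest overlapped between the groups.

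Stromal markers that are used beside CD73, 6 of 6 measured, summed to 107%. Alcam, at 10072 in deletion and 9685 in wild-type hearts, made the largest part of this sum, followed by Vcam1. Thy1 had only 19.1 and 23.3 in the same order, so the sum says little about it. Eng was lower at 2638 ± 125 in deletion hearts against 3541 ± 150 in wild-type hearts (−0.42, adjusted p = 0.0108, limma). Its call was lost without deletion replicate 2 or 3 and with the 4 female libraries alone. The other 5 did not pass. Among them Cd44 and Mcam had higher values in every deletion library than in any wild-type library, at 119% and 123% of the wild-type mean. The groups did not overlap for 27.4% of all genes. Cushion mesenchyme markers, 10 of 10, summed to 83.3%. Of these Postn, a matrix protein of valve mesenchyme, had 151 ± 65.9 in deletion hearts and 352 ± 82.3 in wild-type hearts (−1.27, adjusted p = 0.0412, limma), and Twist1 had 202 ± 14.5 and 464 ± 162 in the same order (−1.14, adjusted p = 0.0196, limma). The other 8 cushion markers did not pass, where 3.05% of all genes passed in either direction. Of these, Sox9, Prrx2 and Col1a2 stood at 112%, 112% and 102% of the wild-type mean in deletion hearts. Prrx1, Pdgfra and Snai2 stood at 88.8%, 89.1% and 86.0%, and all 6 overlapped between the groups. Col1a1 and Snai1 stood at 46.1% and 65.8% without overlap. The summed cushion level ranged from 69.8% to 92.5% of the wild-type mean in deletion libraries and from 80.5% to 125% in wild-type libraries. Postn was not past the threshold without deletion replicate 1, deletion replicate 2, wild-type replicate 2 or wild-type replicate 3, nor was Twist1 without any 1 of the deletion libraries. With the 4 female libraries alone neither passed.

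Of the epicardial markers, 7 of 8 were measured. Of the 7, 1, Krt19, was higher past the threshold while 6 did not pass, where 3.05% of all genes passed in either direction. Their sum was 145%, 150.5% and 189% of the wild-type mean in deletion libraries 1 to 3, against 88.3%, 117% and 94.9% in wild-type libraries 1 to 3. Krt19, a keratin of epithelia, made the largest part of it at 2351 ± 27.2 normalized counts in deletion hearts and 1299 ± 51.7 in wild-type hearts (0.86, adjusted p = 1.52e-04, limma). Without Krt19 the sums overlapped between the groups, at 118%, 127% and 197% of the wild-type mean in deletion libraries and 82.2%, 129.8% and 88.0% in wild-type libraries. Of the 6 that did not pass, Tcf21 and Tbx18 stood at 188% and 168% of the wild-type mean without overlap between the groups. The groups did not overlap for 27.4% of all genes either. Wt1, Upk1b and Aldh1a2 at 134%, 121% and 108% and Upk3b at 86.9% overlapped. Upk3b had 509 normalized counts in wild-type library 2, its highest value. The leukocyte and macrophage list had 3 of 10 genes measured and summed to 107%. Ptprc, Cx3cr1, Aif1, Tyrobp, Fcer1g, C1qa and C1qb had no row. Mrc1 and Lyve1 made most of the sum, which therefore says little about leukocytes. Mrc1, a mannose receptor, rose to 248.5 ± 33.1 in deletion hearts against 117 ± 13.7 in wild-type hearts (1.08, adjusted p = 0.00637, limma), a call lost with the 4 female libraries alone. Lyve1 stood the other way without passing, at 245 ± 19.7 in deletion hearts and 347 ± 91.8 in wild-type hearts, and Csf1r overlapped between the groups. Neural crest markers, 3 of 6, summed to 82.9% with Ets1 lower (−0.30, adjusted p = 0.0376, limma; not past the threshold without any 1 deletion library or wild-type replicate 3, with the 4 female libraries alone, with sex as a covariate or with equal totals without haemoglobin). Ets1 made most of the neural crest sum, and Sox10, Foxd3 and Tfap2b had no row. Pharyngeal markers summed to 101% and erythroid markers to 112%. Krt8, at 3214 in deletion and 3101 in wild-type hearts, made the largest part of the pharyngeal sum, followed by Krt18. The rarer pharyngeal markers spread widely between libraries. Shh, for one, had 41.2, 35.3 and 74.5 normalized counts in deletion libraries 1 to 3 and 154, 6.23 and 16.5 in wild-type libraries 1 to 3. The pharyngeal sum therefore says little about them. The part of any of these cell types in the values of Nt5e, Entpd1, Adora2a or Enpp1 was not tested.

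**Figure D4:**
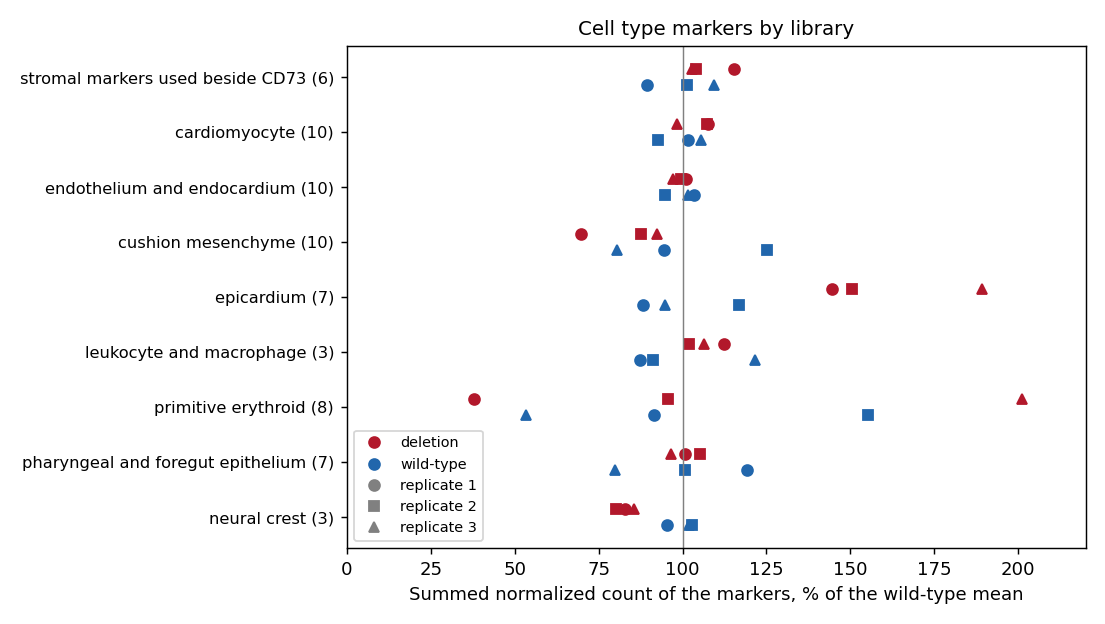
Summed normalized counts of each cell type's markers in every library, as a percentage of the wild-type mean, with the number of markers measured in brackets. Red points above are deletion libraries and blue points below are wild-type libraries. The epicardial sums of the deletion libraries, 145% to 189%, lie above those of the wild-type libraries, 88.3% to 117%, but overlap them without Krt19, and the erythroid sums spread most within each group.

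The genes whose profile over the 6 libraries was nearest to that of Nt5e were found among 12748 genes by Euclidean distance between centred log2 values. This measure finds genes that differ between the groups by a like amount, so it is a description of the same contrast. Acap1, a GTPase-activating protein of Arf6, was nearest, at a distance of 0.58 with a Pearson r of 0.994 over 6 libraries. It had 31.5 ± 6.45 normalized counts in deletion hearts and 316 ± 37.6 in wild-type hearts (SD, n = 3 each). Next came Nostrin, which binds endothelial nitric oxide synthase, at a distance of 1.15 with 11.6 ± 1.25 in deletion hearts and 51.3 ± 2.54 in wild-type hearts. Olfml2a, Wnt4, Tdgf1, Bace2 and Clec4g followed at distances from 1.22 to 1.35, and Hand2 was the eighth at 1.42. Entpd1 was in place 28 of these genes, at 2.14 with an r of 0.979, a like shape at a smaller difference.

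**Figure D5:**
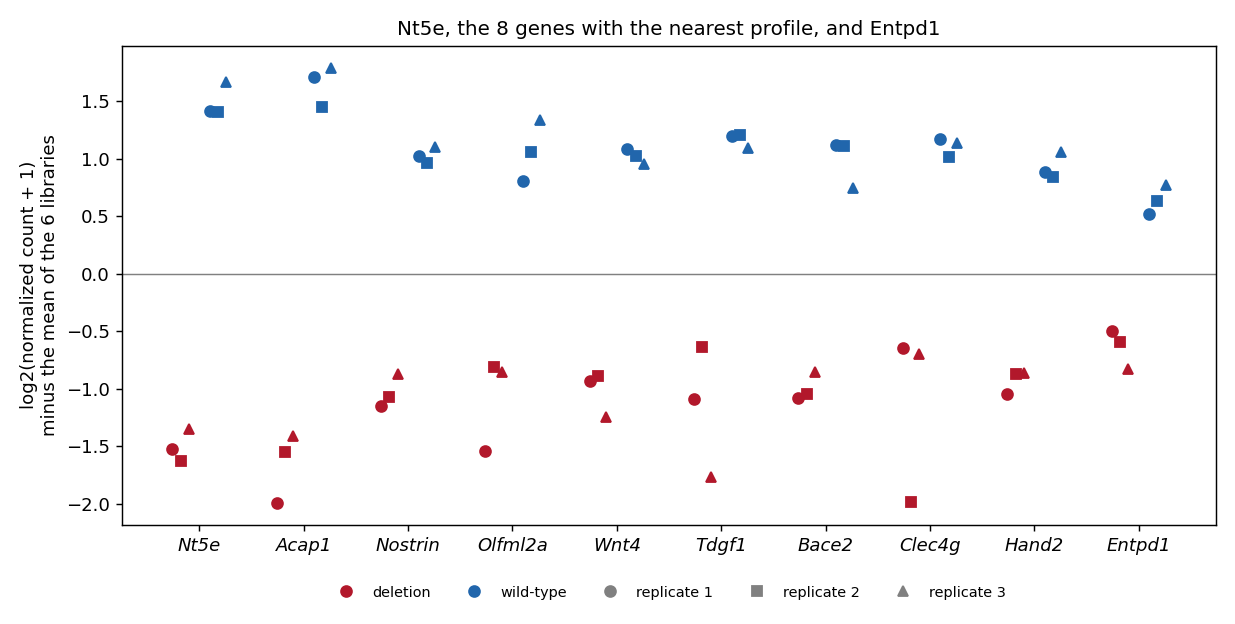
Log2(normalized count + 1) of Nt5e, its 8 nearest genes in order of distance, and Entpd1, each minus its mean over the 6 libraries. Red points on the left of each gene are deletion libraries and blue points on the right wild-type libraries. Acap1 has a gap slightly wider than that of Nt5e, the other 7 a narrower one, and Entpd1 the narrowest.

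None of the genes beside Nt5e on its chromosome passed the test in limma; 2 of the 8, Tbx18 and Snap91, had an unadjusted p under 0.05, as had 21.4% of all genes, so nothing is read from that count. In the gene order of RefSeq on GRCm38 the 4 measured protein-coding genes before it were Tbx18, Cep162, Cyb5r4 and Snap91, and the 4 after it Snx14, Syncrip, Zfp949 and Mthfsl. Tbx18, the direct neighbour and a transcription factor of the epicardium and sinus horn, stood the other way from Nt5e. It had 1120, 1139 and 1850 normalized counts in deletion libraries 1 to 3, against 680, 974 and 790 in wild-type libraries 1 to 3. The groups did not overlap, and the log2 difference of 0.72 did not pass (SE 0.19, adjusted p = 0.0738, limma). The other 7 had differences between −0.22 and 0.35. None of the 8 neighbours was lower past the threshold.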

How the data were processed

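RNA of E9.5 hearts was read in 3 deletion and 3 wild-type libraries. Per the labels' protocols, 300 ng of total RNA went into stranded poly(A) TruSeq libraries, read from both ends on a NovaSeq. Named in the submitters' processing notes are the builds GRCm39 and mm39, DESeq2 1.30.1, STAR 2.7.9a, Subread 2.0.1 with featureCounts, and bcl2fastq 2.20. The sources used here do not give the annotation, the strand setting or the gene filter. The deposited signal is, per the file headers and names, a normalized count: the authors divided each gene's reads by a size factor of its library. The table has 15330 genes and 6 columns, and 5 further files each repeat 1 column.

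All values were whole multiples of 1 read's value (100% within 0.01), so reads were recovered for count models. The test was limma-trend (limma 3.58.1, R 4.3.3), two-sided, on log2(normalized count + 1) for genes of a mean of at least 10, which removed none, with Benjamini-Hochberg adjustment over all genes and a threshold of 0.05. The pseudocount understates differences of low genes. The script was tested on simulated data. Alternatives were the pseudocount, the filter, the scaling (TMM, totals without haemoglobin, quantile), edgeR 4.0.16 and DESeq2 1.42.0 on those reads, a sex term, a replicate block, the recorded files, female libraries and single libraries left out. Subtracting a trend with length and GC content (splines of 4 degrees of freedom; lengths known for 96.9% of genes) was chosen after seeing the data. So was the epicardial sum without Krt19.

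The genes and lists were chosen with earlier results of these data known. Named were the 9 genes, list members past the threshold or else the 2 most abundant, called markers, the 8 genes of a mean of at least 20 nearest to Nt5e in profile, 4 neighbours on each side, and Hand2. One gene that met this rule is not reported here.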

Additional observations from a re-analysis of the deposited data

Results flagged for a closer look

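Between the sexes, 3 genes differed in the direction of the deletion minus wild-type log2 difference. For Ada it was −0.889 between the 4 female libraries and 0.118 between the 2 male libraries. For Adora1 it was 0.408 in female and −0.0823 in male libraries. For Slc29a1 it was −0.393 in female and 0.209 in male libraries. With 1 male library in each group the difference between the sexes was not tested. None of the 3 genes passed the threshold over all 6 libraries.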

How the results depend on the processing

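Without the recorded files, every alternative left Nt5e and Entpd1 lower and past the threshold. Over the 6 fits that leave out 1 library, Nt5e lay between −3.07 and −2.91 and Entpd1 between −1.35 and −1.19. Nt5e was chosen by its low counts in these same libraries, so its passing in refits of them is a description and no test. The refits of Entpd1 reuse the same libraries, and it was listed with earlier results of these data known. Its passing is a description too. The count of adenosine pathway genes called higher, 1 (Adora2a), became 0 with the replicate block, 0 with the 4 female libraries and 0 to 1 with a library left out. The count of other purine genes called higher, 1, became 3 in DESeq2 (Ak4 and Gnal added, named after their values were seen), 0 with the 4 female libraries and 1 to 3 with a library left out. Same-numbered libraries of the 2 groups did not deviate together over all genes (correlations −0.0347, −0.121 and −0.137). They share their labelled sex, and so few correlations cannot show that no pairing exists. The block called 206 genes in place of 467. DESeq2 called 1139 and the 4 female libraries 35. With a library left out it was 103 to 1161: 138, 103 and 165 without deletion replicates 1, 2 and 3, and 168 and 1161 without wild-type replicates 3 and 2. The block also ended the calls of Tek, Kdr and Ets1. Calls split into 230 lower and 237 higher, but 209 and 393 with equal totals without haemoglobin, and 297 and 186 with the length and GC trend removed.

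With the recorded files, the counts called became 0 for pathway genes lower, 0 for pathway genes higher and 0 for other purine genes higher. The differences turned to 0.98 for Nt5e, 0.22 for Entpd1, 0.63 for Ada, 0.069 for Adk, −0.30 for Adora1, −0.12 for Adora2a, 0.33 for Slc29a1, −0.0010 for Slc29a2, 0.57 for Hand2, −0.10 for Enpp1, −0.13 for Slc29a3, 0.040 for Ank, 0.027 for Gnas, 0.065 for Eng, 0.059 for Tek, −0.19 for Kdr, 0.60 for Twist1, 0.77 for Postn, −0.34 for Krt19, −0.55 for Mrc1, 0.10 for Ets1, 1.16 for Acap1, 0.74 for Nostrin, 0.68 for Olfml2a, 0.57 for Wnt4, 0.42 for Tdgf1, 0.92 for Bace2, 0.99 for Clec4g, 0.072 for Cyb5r4, −0.21 for Snap91, −0.045 for Syncrip, −0.061 for Zfp949 and 0.14 for Mthfsl. This swaps the groups of 4 libraries by construction.

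Small differences also turned elsewhere: Nt5dc2 to −0.026 with female libraries and −0.00089 without deletion replicate 3 (0.086 at most with a library left out), Ahcyl1 to −0.0066 without wild-type replicate 1 (at most 0.081), Slc29a4 to −0.23 with female libraries, −0.25 without wild-type replicate 3 (at most 0.47) and −0.014 with the length and GC trend removed, Ank to 0.0071 without deletion replicate 2 (at least −0.11), Gnas to 0.0088 under quantile normalization, and Syncrip to −0.088 without wild-type replicate 1 (at most 0.11) and −0.070 with that trend removed. The causes were not tested. Of the other values of single genes, 718 kept direction and side of the threshold, 47 lost their call and 1 gained one. At 19 to 21 reads, counting error limits the Nt5e level of the deletion libraries.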
